A study of Mus musculus with 30 samples.

Results

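B16F10, a mouse melanoma cell line of C57BL/6 origin, was treated in culture for 24 h with a STING agonist at 225 µg/mL or with IFNβ at 1000 U/mL, and the 3 libraries of the agonist were tested directly against the 3 libraries of IFNβ. These 6 libraries are part of 24 bulk RNA-seq libraries of the study, which also hold vehicle and IFNγ (100 ng/mL) groups of B16F10 and the same 4 groups of a mouse pancreatic tumor line, called C2 here. The 3 vehicle libraries of B16F10 are given beside the comparison, since a gene can differ between the agents because either of them moved it. Genes whose mean level over the 12 C2 libraries was more than 10 times that over the 12 B16F10 libraries were left out, which removed 1812 of the 21138 genes with at least 10 reads and left 19326. The agents are unlike molecules given at 1 dose and 1 time each, so their doses cannot be matched. B16F10 is a single cell line, and the labels do not say whether the 3 libraries of a group came from separate cultures, so p-values measure the spread between these libraries, which may be technical. A level is in CPM, the count of reads scaled to library size after TMM normalization, and a difference is a log2 fold change of the agonist over IFNβ with its standard error (SE). Each adjusted p is from the quasi-likelihood test of edgeR and was adjusted over every gene kept, and a gene is called where it is below 0.05.

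STING is a protein of the endoplasmic reticulum that binds cyclic dinucleotides made by the DNA sensor cGAS, and once active it recruits the kinase TBK1, which activates the transcription factor IRF3 and, more weakly, the NF-kB pathway. IRF3 and NF-kB together switch on the gene of IFNβ and chemokine genes such as Ccl5 and Cxcl10. IFNβ binds the receptor IFNAR on the same or neighbouring cells, and through the kinases JAK1 and TYK2 and factors that include STAT2 and IRF9 switches on interferon-response genes, whose promoters often carry an interferon-stimulated response element (ISRE). The agonist acts at the start of this chain, and added IFNβ at the receptor.

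Promoters are shown for interferon-response genes that stood at different points of the comparison, with the ISRE-type letters (GAAANNGAAA on either strand, where N is any base) and the kappa-B-type letters of NF-kB sites (GGGANNTTCC or GGGANNTCCC on either strand) in capitals. They are the bases directly upstream of the RefSeq start of transcription on GRCm38.p6, read 5′ to 3′ along the gene, 120 bases each and 250 for Cxcl10. They are shown because Ifit1, Isg15 and Ddx60 were among the interferon-response genes of which the agonist reached the larger shares, Oas3 and Igtp among those of which it reached the smaller, and Cxcl10 is a chemokine gene with both kinds of letters.
Ifit1 (chr19:34640769-34640888, plus strand): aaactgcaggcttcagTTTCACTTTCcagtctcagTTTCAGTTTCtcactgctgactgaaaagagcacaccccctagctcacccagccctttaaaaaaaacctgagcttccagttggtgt
Isg15 (chr4:156200819-156200938, minus strand): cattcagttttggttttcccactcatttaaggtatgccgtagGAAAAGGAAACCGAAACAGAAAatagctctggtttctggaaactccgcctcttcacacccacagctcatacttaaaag
Ddx60 (chr8:61927967-61928086, plus strand): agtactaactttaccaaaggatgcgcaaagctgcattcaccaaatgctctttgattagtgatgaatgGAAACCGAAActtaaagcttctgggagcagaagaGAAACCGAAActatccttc
Oas3 (chr5:120777660-120777779, minus strand): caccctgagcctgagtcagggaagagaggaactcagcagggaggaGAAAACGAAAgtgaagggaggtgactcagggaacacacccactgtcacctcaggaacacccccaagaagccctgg
Igtp (chr11:58199436-58199555, plus strand): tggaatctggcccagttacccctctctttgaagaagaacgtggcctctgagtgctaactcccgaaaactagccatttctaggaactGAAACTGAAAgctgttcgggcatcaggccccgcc
Cxcl10 (chr5:92348890-92349139, minus strand): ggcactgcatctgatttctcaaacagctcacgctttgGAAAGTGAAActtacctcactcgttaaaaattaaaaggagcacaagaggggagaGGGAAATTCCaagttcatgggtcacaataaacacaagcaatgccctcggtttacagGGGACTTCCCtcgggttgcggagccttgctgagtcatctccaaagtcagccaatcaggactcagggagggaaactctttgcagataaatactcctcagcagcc
Of 12 named genes looked up in the RefSeq table, Ifit1, Isg15, Ddx60, Oas3, Igtp, Cxcl10, Rsad2 and Slfn8 held ISRE-type letters in these 250 bases and Hdc, Ifi44, Tap1 and Ifitm3 did not, and the 6 shown were taken from those that did. In Ifit1 the letters lay on the opposite strand, and in Isg15 3 matches overlapped each other. The kappa-B-type letters of Cxcl10 began 159 and 103 bases before the start, and the second of them matched on both strands.

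The 3 agonist libraries held 15543131, 21419340 and 17344103 reads on genes, and the 3 IFNβ libraries 22411582, 23577050 and 22875591. Melanocyte markers were high in all 6, with summed levels of 21 markers from 30138 to 30614 CPM with the agonist and 25358 to 28132 CPM with IFNβ, while Kit and Ednrb were at 0 in all agonist and vehicle libraries and below 0.2 CPM in the IFNβ libraries. Replicate libraries of B16F10 correlated at r = 0.989 to 0.992 on log2 levels. Their counts differed more within the IFNβ group, with a chi-square per gene of 7.67, 15.2 and 10.3 for the pairs of libraries, against 3.26, 5.99 and 4.24 for the agonist pairs. Reads on genes that are high in the C2 line were present at low levels in B16F10 and were not equal between the groups. Whether they came from C2 material or from B16F10 itself was not tested. Over 190 genes of the C2 line, the median level was 1.18%, 0.94% and 0.964% of the C2 level in the agonist libraries and 0.609%, 0.442% and 0.233% in the IFNβ libraries, against 0.183% to 0.254% in the vehicle libraries. All 1732 genes called higher with the agonist differed by more than 2 times what this gap of 0.6% of the C2 level would add. The rule on left-out genes keeps that amount small beside the level of a gene in B16F10, so this count was largely set in advance. Leaving no gene out raised the genes over 2-fold higher from 65 to 147.

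Of the 19326 genes tested, 1732 were higher with the agonist than with IFNβ (8.96%) and 2306 were lower (11.9%). These shares are the background for the counts of every gene list below. Most differences were small. Over 2-fold, 65 genes were higher (0.336%) and 356 lower (1.84%). The median log2 fold change over all genes tested was -0.04, and with upper-quartile scaling in place of TMM the split of the calls turned to 2331 higher and 1668 lower, so small differences depend on the scaling while those over 2-fold stood at 79 and 337. The genes over 2-fold lower with the agonist were led by antiviral effectors, interferon-induced GTPases and MHC class I genes, and among those over 2-fold higher stood Ccl5 and Ifi27. Against vehicle, with vehicle libraries shared by both comparisons, IFNβ raised 469 genes over 2-fold (2.43%) and the agonist 36 (0.186%).

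**Figure D1:**
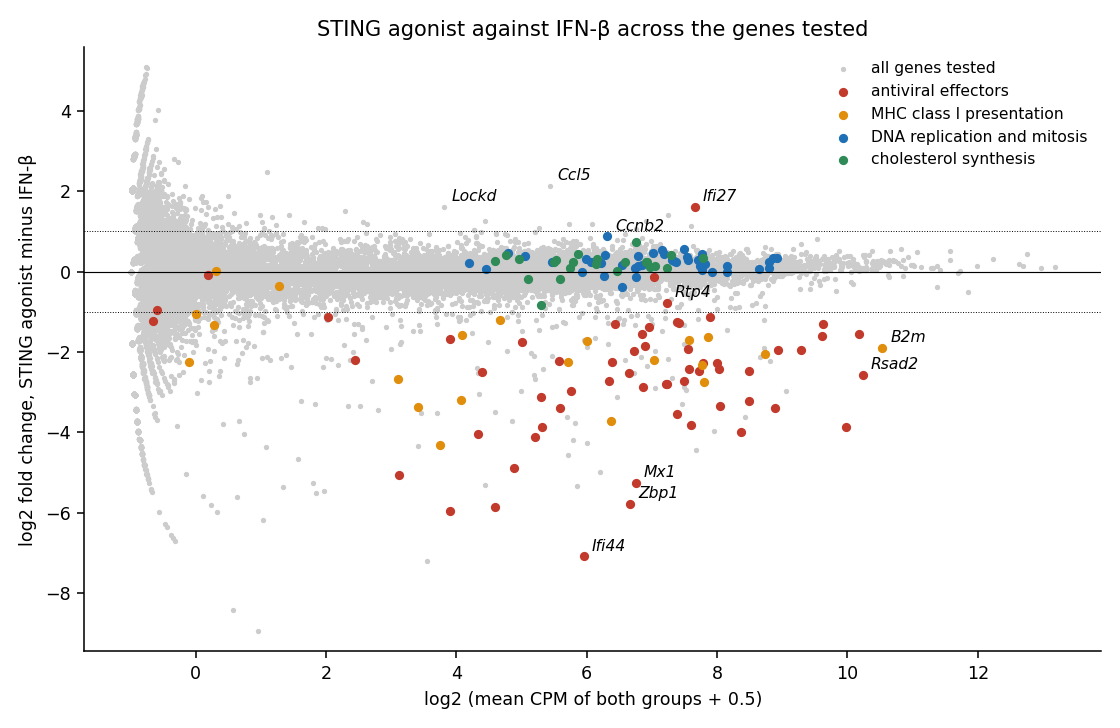
Each point is a gene, with its mean level over the 6 libraries on the x axis (log2 of CPM plus 0.5) and the log2 fold change of the STING agonist over IFNβ on the y axis; the dotted lines mark 2-fold. Antiviral effectors and MHC class I genes lie mostly below the lower line, Ifi27 and Ccl5 above the upper, and the DNA replication and cholesterol genes just above 0.

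The 356 genes over 2-fold lower had a median log2 fold change of -2.13 against IFNβ, and their median over vehicle was 0.248 with the agonist and 2.24 with IFNβ. Of these, 203 were less than 1.5-fold from vehicle with the agonist, and 309.0 were called higher than vehicle with IFNβ. The 65 genes over 2-fold higher had a median of 1.502 against IFNβ, of 0.136 over vehicle with the agonist and of -1.42 over vehicle with IFNβ. Of these, 49 were less than 1.5-fold from vehicle with the agonist, and 46.0 were called lower than vehicle with IFNβ. The medians against IFNβ follow from how these genes were chosen, and the 3 comparisons share libraries, so these values are a description.

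Ccl5, which encodes a chemokine that attracts T cells and is a known target of IRF3 and NF-kB, was raised by the agonist far beyond IFNβ. The gene (ENSMUSG00000035042, GRCm38 chr11:83525778-83530518, minus strand) stood at 64.6, 71.8 and 72.1 CPM in the agonist libraries, at 15.8, 15.7 and 16.5 CPM in the IFNβ libraries and at 11.6, 11.2 and 10.6 CPM in the vehicle libraries. The groups did not overlap, and the agonist exceeded IFNβ 4.35-fold (log2 2.12 ± 0.08 (SE), n = 3 and 3, adjusted p = 1.59e-82 by edgeR). Its log2 fold change over vehicle was 2.65 with the agonist and 0.52 with IFNβ. IFNγ gave 23.8, 25.2 and 22.8 CPM, which also lay below every agonist library. Its mean level in the C2 line was 0.357 CPM, below its level in every B16F10 library. Over the 21 genes called over 2-fold higher without overlap and with at least 3 CPM, Ccl5 had the largest fold change, and of the 12 largest it alone was called higher than vehicle with the agonist.

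The other 11 of these 12 genes were all called lower than vehicle with IFNβ. With the agonist, Cip2a (-0.28) and Mapk11 (-0.73) were also called lower than vehicle, by log2 fold changes that were smaller than with IFNβ, and the other 9 were not called. Ifi27, a gene named for induction by interferon, gave 318, 308 and 289 CPM with the agonist, 93.3, 98.7 and 107 CPM with IFNβ and 296, 294 and 312 CPM with vehicle. The agonist and vehicle values overlapped, and the agonist exceeded IFNβ 3.06-fold (log2 1.61 ± 0.06 (SE), n = 3 and 3, adjusted p = 7.26e-97 by edgeR). Ss18l2 gave 223, 212 and 228 CPM with the agonist, 85.1, 75.7 and 87.7 CPM with IFNβ and 223, 202 and 224 CPM with vehicle (log2 1.41). Lockd, a long noncoding RNA, gave 21.5, 17.8 and 21.5 CPM with the agonist, 6.31, 5.34 and 8.18 CPM with IFNβ and 23.2, 24.6 and 24.7 CPM with vehicle (log2 1.61). In Ss18l2 the agonist and vehicle libraries overlapped, and in Lockd the agonist libraries lay between the others. Cdkn3, a phosphatase of cyclin-dependent kinases, was at 30 CPM with the agonist, 12.4 with IFNβ and 29.3 with vehicle, and Cip2a, an inhibitor of the phosphatase PP2A, at 93.2, 41 and 113 CPM. The histone gene H2afj was at 169 CPM with the agonist and 71.4 with IFNβ, and Mapk11, which encodes the p38 beta kinase, at 3.72 and 1.57 CPM. The remaining genes of the 12 all had mean levels under 10 CPM, and were 2010001A14Rik at 6.47 and 2.29 CPM, Gm45716 (log2 1.41), Ccdc167 (1.23) and ENSMUSG00000097769 (1.19).

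**Figure D2:**
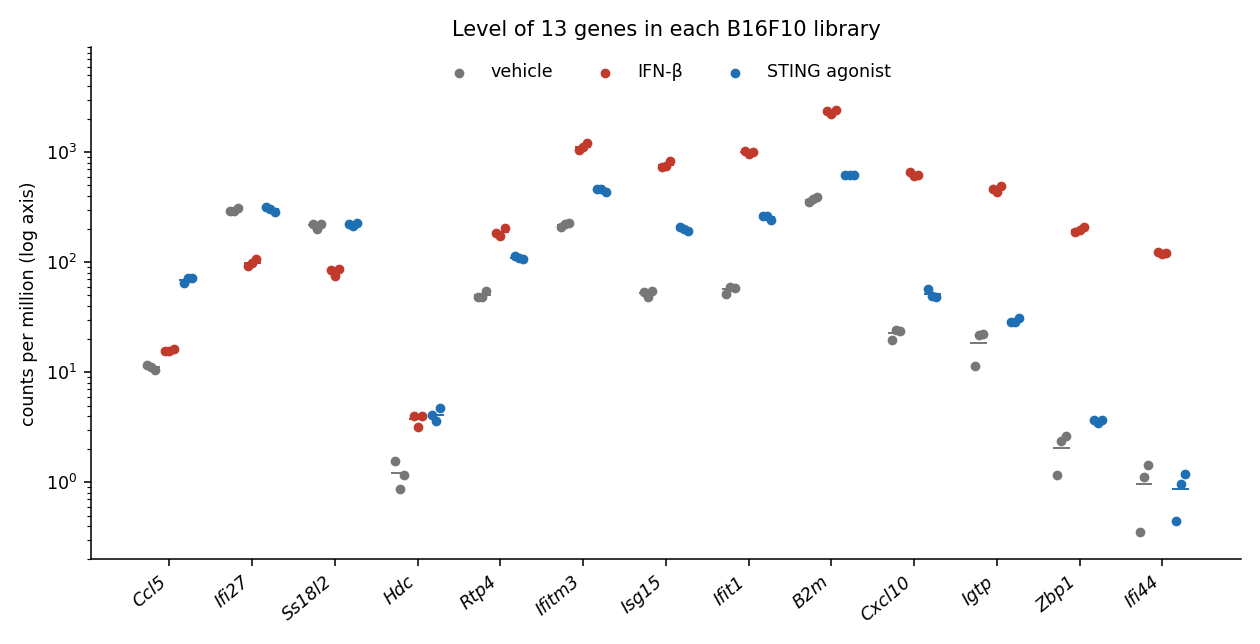
Level in CPM (log axis) of 13 genes in each of the 3 vehicle, 3 IFNβ and 3 STING agonist libraries of B16F10; points are libraries and bars group means. Ccl5 is highest with the agonist, Ifi27 and Ss18l2 are lowest with IFNβ, Hdc overlaps between the agents, and in the other 9 genes, from Rtp4 to Ifi44, all agonist libraries lie below all IFNβ libraries.

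To set how far the agonist reached the IFNβ level, the rise over vehicle in mean CPM was taken as a percent of the rise with IFNβ, for the 274 genes raised over 2-fold by IFNβ with at least 3 CPM. The median share was 7.95%, with quartiles of 3.33% and 14.6%. It lay below 0 for 24 genes, between 0 and 10% for 140, between 10% and 25% for 90 and between 25% and 50% for 19. No gene lay between 50% and 100%, and 1 gene, Hdc, exceeded 100%. The agonist was called higher than vehicle for 130 of the 274 and lower for 1, Tgtp2. By the medians over the 190 genes above, an agonist library held at most 0.996% more of the C2 level than a vehicle library. Those genes were chosen with a mean in B16F10 under 2% of the C2 level, and single genes can exceed a median, so this share is not an upper limit. For 213 of the 274, called or not, the rise was larger than this share of the highest C2 group mean. Of the 130 this held for 117. The other 13 were Batf2, Gbp2, H2-K1, H2-Q4, H2-T23, Ifi204, Ifi211, Igtp, Iigp1, Irf1, Phf11d, Rnf213 and Zbp1, with shares of the IFNβ rise from 0.797% for Zbp1 to 27.4% for Batf2.

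**Figure D3:**
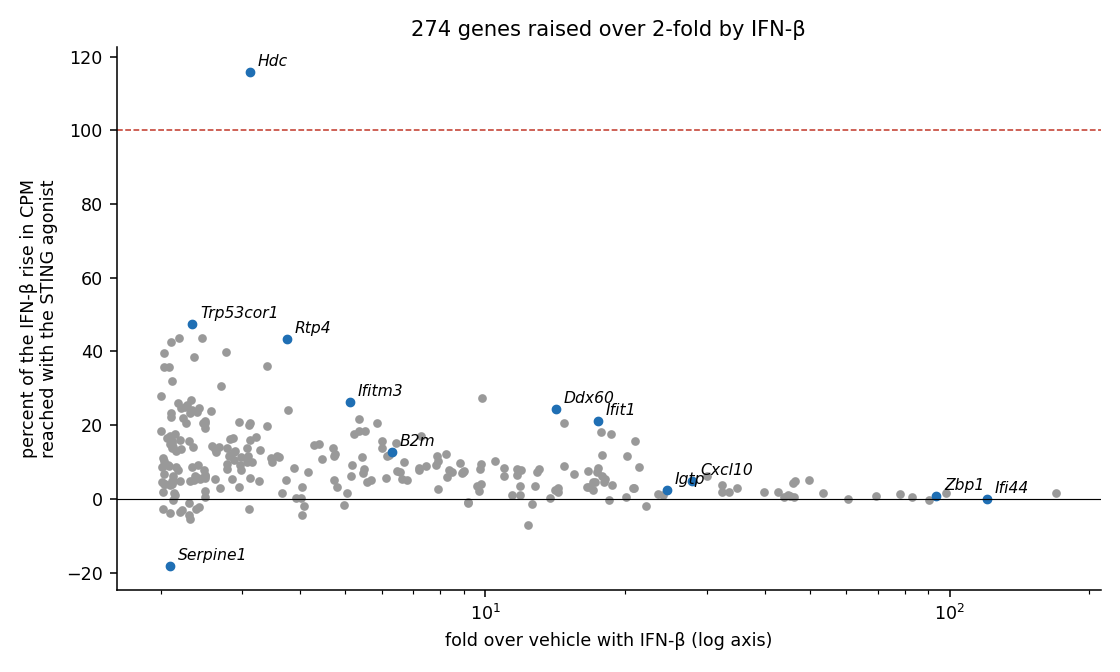
Each point is 1 of the 274 genes raised over 2-fold by IFNβ, with its fold over vehicle with IFNβ on the x axis (log axis) and the percent of that rise reached with the STING agonist on the y axis; the dashed line marks 100%. Hdc lies above the dashed line at 115.8%, all other genes lie below 50%, with Rtp4 at 43.4%, and Zbp1 and Ifi44 lie near 0.

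Of the genes that both agents raised over 2-fold and that had at least 3 CPM with each, 25 in all, the 6 with the smallest difference between the agents are given here. Some genes that the agonist raised less than 2-fold differed less from IFNβ than most of these, such as Trp53cor1 (-0.52), and Batf2, with 1.24 CPM with the agonist, was below the minimum (-1.56). Hdc, which encodes histidine decarboxylase, the enzyme that makes histamine, gave 4.1, 3.58 and 4.71 CPM with the agonist, 4, 3.19 and 4 CPM with IFNβ and 1.58, 0.864 and 1.18 CPM with vehicle. The agonist and IFNβ libraries overlapped, and their difference did not pass the test (log2 0.14 ± 0.18 (SE), 95% interval -0.21 to 0.49, n = 3 and 3, adjusted p = 0.686 by edgeR). Rtp4, an interferon-induced inhibitor of flavivirus replication, reached 43.4% of the IFNβ rise, with 115, 109 and 108 CPM with the agonist, 186, 174 and 207 CPM with IFNβ and 48.3, 48 and 55.1 CPM with vehicle. All agonist libraries lay between the vehicle and IFNβ libraries.

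Ifitm3, which blocks virus entry at membranes, reached 26.2%, with 468, 463 and 439.5 CPM with the agonist and 1049, 1107 and 1219.8 CPM with IFNβ. Ddx60, a helicase of the RNA-sensing pathway, reached 24.4%, at 12.6, 15.1 and 15.7 CPM against 51.8, 49.1 and 45.1 CPM. Isg15, the ubiquitin-like modifier whose promoter is shown above, reached 20.5%, at 208, 201 and 192 CPM against 728, 749.9 and 842 CPM. Ifih1, which encodes the RNA sensor MDA5, reached 17.2%. Their log2 fold changes against IFNβ were -0.77 for Rtp4, -1.30 for Ifitm3, -1.74 for Ddx60, -1.81 for Ifih1 and -1.95 for Isg15, so all 5 were lower with the agonist.

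At the other end stood genes with a large IFNβ response and almost no rise with the agonist. Ifi44, an antiviral effector, gave 125, 118 and 122 CPM with IFNβ, 0.449, 0.964 and 1.19 CPM with the agonist and 0.357, 1.12 and 1.43 CPM with vehicle (log2 -7.09 ± 0.13 (SE), n = 3 and 3, adjusted p = 1.47e-188 by edgeR). The agonist and vehicle libraries overlapped. Zbp1, a sensor of Z-form nucleic acids that can start necroptosis, gave 188, 197 and 211 CPM with IFNβ, 3.72, 3.49 and 3.69 CPM with the agonist and 1.17, 2.37 and 2.65 CPM with vehicle (log2 -5.78). The agonist libraries of Zbp1 all lay above vehicle, by 1.57 CPM in the mean. This is within 1.8 CPM, which is the median share given above of its highest C2 group mean. Oas3, a synthetase of the 2′-5′ oligoadenylates that activate RNase L, stood at 46.5 CPM with IFNβ and 0.807 CPM with the agonist, and Slfn8, of the Schlafen family, at 28.4 and 0.445 CPM. Tnfsf10, which encodes the death ligand TRAIL, was at 6.64 CPM with IFNβ and 0.145 CPM with the agonist.

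Of the 220 genes called over 2-fold lower without overlap and with at least 3 CPM, the 12 with the largest change also held genes of families that are multi-copy in the mouse. Ifi207 had a log2 fold change of -7.20 and Ifi206 of -5.26, both of the p200 family, and the immunity-related GTPase genes Tgtp2 and Gm4951 had -5.33 and -5.30. Ifi207 and Ifi206 stood at only 0.138 and 0.149 CPM with the agonist, so the size of their folds rests on few reads. Tgtp2 gave 0.866, 7.73 and 5.89 CPM with vehicle and 2.95, 1.61 and 3.97 CPM with the agonist, and was the 1 gene of the 274 called lower with the agonist than with vehicle, although these libraries overlapped. Gm2619, Gm7609 and BC023105 complete the 12, with under 7 CPM in every library and too few reads with the agonist for a fold. Reads of such near-identical copies, and of Ifit3 and Ifit3b, could be split between them, so the values of single copies are uncertain.

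Of 21 named ligand genes, Ifnz alone passed the minimum of reads, and it stood at 0.898, 0.873 and 1.13 CPM with the agonist, 0.131, 0.58 and 0.217 CPM with IFNβ and 0.662, 0.345 and 0.673 CPM with vehicle (log2 1.61, adjusted p = 0.00919 by edgeR). All of these levels are near 1 CPM or below, agonist and vehicle did not differ by the test, and the call was lost without STING replicate 3 or IFNβ replicate 1. No other interferon ligand gene could be compared at this depth and time.

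Of the agonist's own pathway, the receptor and kinase genes differed little while the sensors that interferon induces differed widely. Tmem173, which encodes STING, gave 31.9, 33.8 and 31.7 CPM with the agonist and 37.3, 32.1 and 37.1 CPM with IFNβ (log2 -0.13, 95% interval -0.28 to 0.03, adjusted p = 0.295 by edgeR). Irf3 gave 30.1, 26.1 and 30.3 CPM and 26.9, 29.1 and 29.4 CPM (log2 0.01, interval -0.15 to 0.18), and Tbk1 42.3, 36.8 and 38.7 CPM and 46.4, 40.5 and 46.1 CPM (log2 -0.18, interval -0.33 to -0.03, adjusted p = 0.0818). All 3 genes were above 25 CPM in every library, and none of the 3 passed the test. Tbk1 was called lower without STING replicate 1 (-0.23) or without IFNβ replicate 2 (-0.24). Cgas, the DNA sensor upstream of STING, was lower with the agonist at 15.8, 15.1 and 16.1 CPM against 27, 25.9 and 25.5 CPM (log2 -0.74, adjusted p = 8.62e-12), close to the 15.4, 13.1 and 14.7 CPM of vehicle. Of the 24 tested genes for sensing of nucleic acids in the cytosol, 16 were lower with the agonist, none was higher, and the median log2 fold change was -1.59. The p200 genes Ifi204 (141 CPM with IFNβ, 4.44 with the agonist) and Ifi211 (100.0 and 4.24 CPM) and the RNA sensors Dhx58 (272 and 43.5 CPM) and Ddx58 (416 and 151 CPM) were among them.

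Of 20 tested genes of interferon signalling and its feedback, 14 were lower and none higher, with a median of -0.46. In the fits that left out 1 library, 10 to 14 were lower, and 1 was higher without STING replicate 1 or without IFNβ replicate 3. With upper-quartile scaling 11 were lower and 2 higher. Stat2 gave 18.6, 17.7 and 18.2 CPM with the agonist, 157, 152 and 163 CPM with IFNβ and 7.44, 8.51 and 10.3 CPM with vehicle, and Usp18, a deconjugase of ISG15 that damps the receptor, 120.2, 944 and 54.2 CPM in the mean. Stat2 and Usp18 were higher with the agonist than with vehicle by log2 fold changes of 1.04 and 1.15. The genes of the receptor chains Ifnar1 (0.05) and Ifngr1 (-0.05) did not pass the test, and Ifnar2 was lower by a small margin (-0.21). Irf7 was left out for its level in the C2 line.

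Antiviral effectors, proteins that block steps of virus growth, gave the largest number of calls of the lists. Of 65 genes named, 64 were measured, 4 were left out (Oasl1, Slfn2, Ly6e and Ifit1bl1) and 60 were tested. With the agonist 55 of them were lower, 54 over 2-fold, and Ifi27 was higher, with a median log2 fold change of -2.44 against -0.04 over all genes. Their summed level was 2638 to 2849 CPM in the vehicle libraries, 4626 to 4768 CPM with the agonist and 20385 to 20989 CPM with IFNβ, so that the agonist stood above vehicle without overlap and below IFNβ. Against vehicle, 46 of the 60 were called higher with the agonist and 56 with IFNβ. Over the 55 that IFNβ raised over 2-fold, the agonist reached a median of 7.63% of the rise, and under 10% for 37. Ifit1, whose product binds viral RNA that lacks cap methylation, gave 261, 263 and 245 CPM with the agonist, 1029, 964 and 999 CPM with IFNβ and 51.8, 60.1 and 58.6 CPM with vehicle (log2 -1.96), and reached 21.2%. Ifit3 of the same family gave 134, 122 and 129.9 CPM and 2004, 1794 and 1871 CPM and reached 4.77%. Rsad2, which encodes the antiviral enzyme viperin, and the dynamin-like Mx1 stood at 347 and 5.41 CPM with the agonist, at 2069.7 and 209.6 CPM with IFNβ and at 116 and 2.09 CPM with vehicle.

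The guanylate-binding proteins and immunity-related GTPases, which attack the membranes of intracellular pathogens and respond to both types of interferon, showed the lowest median of all lists. Of 20 tested, 17 were lower and none higher, with a median of -3.12, and the agonist reached a median of 3.31% of the IFNβ rise over 17 genes. Igtp gave 28.4, 28.7 and 31 CPM with the agonist, 461, 436 and 489.8 CPM with IFNβ and 11.5, 21.9 and 22.3 CPM with vehicle. The rise of Igtp over vehicle in the mean, 10.8 CPM, was within 11.6 CPM, which is that median share of its highest C2 group mean. Iigp1 stood at 18.4 CPM with the agonist and 392 CPM with IFNβ, and Irgm2 at 32.4 and 319.9 CPM. The rises of Iigp1 (7.03 CPM), Gbp2 (23.4 CPM) and Tgtp1 (1.55 CPM) were also within such amounts, which were 26.8, 57.2 and 8.15 CPM. Those of Gbp4, Gbp6, Gbp9, Ifi47 and Gm4951 were within them too, while those of Gbp3, Gbp7, Irgm1 and Irgm2 were larger. The part of these amounts in the median share of the list was not tested.

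MHC class I presentation, which displays peptides to CD8+ T cells, was likewise below IFNβ. Of 21 genes tested, 18 were lower with the agonist, all of them over 2-fold, none was higher, and the median was -2.06. B2m, the light chain of class I, gave 619, 628 and 626 CPM with the agonist, 2371, 2227 and 2437 CPM with IFNβ and 350.1, 373 and 394 CPM with vehicle (log2 -1.91), and the agonist reached 12.8% of the rise. H2-T22, a class I heavy chain, stood at 57.2, 386 and 35.1 CPM, the peptide transporter gene Tap1 at 11.7, 153 and 7.29 CPM and the loading chaperone gene Tapbp at 72.2, 364 and 41.2 CPM with the agonist, IFNβ and vehicle. All 4 were higher with the agonist than with vehicle, by log2 fold changes of 0.75 (B2m), 0.71 (H2-T22), 0.66 (Tap1) and 0.81 (Tapbp). For Tap1 the rise of 4.43 CPM stood beside 3.55 CPM, which is that median share of its highest C2 group mean.

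None of 11 MHC class II genes passed the test between the agents by edgeR. Cd74, the invariant chain, gave 20.6, 19.5 and 19.5 CPM with the agonist and 32, 18.9 and 15.1 CPM with IFNβ, and the IFNβ libraries spread more widely than the agonist libraries. H2-Eb1 gave 9.3, 9.37 and 10.5 CPM and 13.3, 6.5 and 5.44 CPM. IFNβ replicate 1 was the highest and replicate 3 the lowest of the IFNβ libraries for both genes. Without IFNβ replicate 1, 4 of the 11 class II genes were called higher with the agonist, among them H2-Eb1 (0.71) and H2-DMb2 (0.75), and the median moved from 0.17 to 0.708, and without IFNβ replicate 3 Cd74 was called lower (-0.35). Among 9 B-cell markers the summed level was 21.1 to 37.4 CPM with IFNβ, 24.9 to 34.3 CPM with the agonist and 13.8 to 29.8 CPM with vehicle, and only Ighm was called (log2 -0.39). None of the 4 tested T-cell markers was called, and Cd247 was at 0 in 7 of the 9 agonist, IFNβ and vehicle libraries. Of 6 macrophage markers only Cd68 was called (log2 -0.47), of 5 fibroblast markers Pdgfra (1.84, all libraries under 1 CPM) and of 5 epithelial markers Cldn4, lower with the agonist and with 1 read in each agonist library. The calls of Ighm, Pdgfra and Cldn4 were lost in several fits that left out 1 library, and that of Cd68 without IFNβ replicate 2. The part of these markers in the class II values was not tested.

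Of 12 tested checkpoint ligand genes, 7 were lower and none higher, but without STING replicate 1 only 4 were lower. The median was -0.60, and ran from -0.378 without STING replicate 2 to -1.070 without STING replicate 3. Cd274, which encodes PD-L1, gave 4.23, 4.27 and 4.37 CPM with the agonist, 31.5, 35.9 and 38.2 CPM with IFNβ and 2.9, 3.37 and 4.5 CPM with vehicle (log2 -3.04), and the agonist libraries lay within the vehicle range (adjusted p = 0.504 by edgeR against vehicle). Cd47, the signal that holds phagocytes off, stood at 34.2 CPM with the agonist and 158 CPM with IFNβ, and Lgals9, which encodes galectin-9, at 177 and 663 CPM.

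Of 21 chemokine genes measured, 10 were left out for their level in the C2 line and 11 were tested, of which Ccl5 was higher and Cxcl10 lower. Cxcl10, which attracts T cells through CXCR3 and whose promoter holds both kinds of letters, gave 57.1, 49.7 and 48.9 CPM with the agonist, 665, 616 and 618 CPM with IFNβ and 19.8, 24.1 and 23.9 CPM with vehicle (log2 -3.61 ± 0.06 (SE), n = 3 and 3, adjusted p = 3.33e-198 by edgeR). The agonist raised Cxcl10 over vehicle by a log2 fold change of 1.19, or 4.8% of the IFNβ rise. Ccl5 and Cxcl10 thus stood in opposite order between the agents. Ccl27a, the third by p, stood at 3.02 CPM with the agonist and 2.03 CPM with IFNβ and did not pass (adjusted p = 0.066 by edgeR). It was called higher with a filterByExpr minimum of reads (0.574) and with upper-quartile scaling (0.618).

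Of 34 measured NF-kB feedback genes and targets, 9 were left out and 25 tested. Of these 1 was higher and 7 lower, against 8.96% and 11.9% over all genes, and their median of -0.04 was the same as over all genes. The NF-kB subunit gene Relb was higher (log2 0.57), and was at 7.06 CPM with the agonist, 4.75 CPM with IFNβ and 7.85 CPM with vehicle. Nfkbia, the inhibitor gene that NF-kB itself induces, stood at 7.6, 7.49 and 7.87 CPM and Nfkb2, which encodes another subunit, at 43.6, 41.6 and 47.4 CPM, and neither passed the test. The macrophage growth factor gene Csf1 was lower (28.9 CPM with the agonist, 94.1 CPM with IFNβ), as was the cytokine gene Lif (-1.14) and Cflar, an inhibitor of caspase-8 (-0.84).

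Of 23 cell death genes tested, 14 were lower with the agonist and 1 was higher, with a median of -0.24. Among the lower were Daxx (35.5 CPM with the agonist, 125 CPM with IFNβ), a partner of death receptors and histone chaperone, Mlkl, the effector of necroptosis (102 and 256 CPM), and Xaf1, an antagonist of the caspase inhibitor XIAP (58.5 and 172 CPM). Of 12 complement genes and inhibitors, 4 were lower and Cd59a, an inhibitor of the membrane attack complex, was higher (0.47). C2 (complement component 2) stood at 33.8 CPM with the agonist and 105 CPM with IFNβ, C1ra at 16.7 and 46.5 CPM and C4b at 1.37 and 6.07 CPM.

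**Figure D4:**
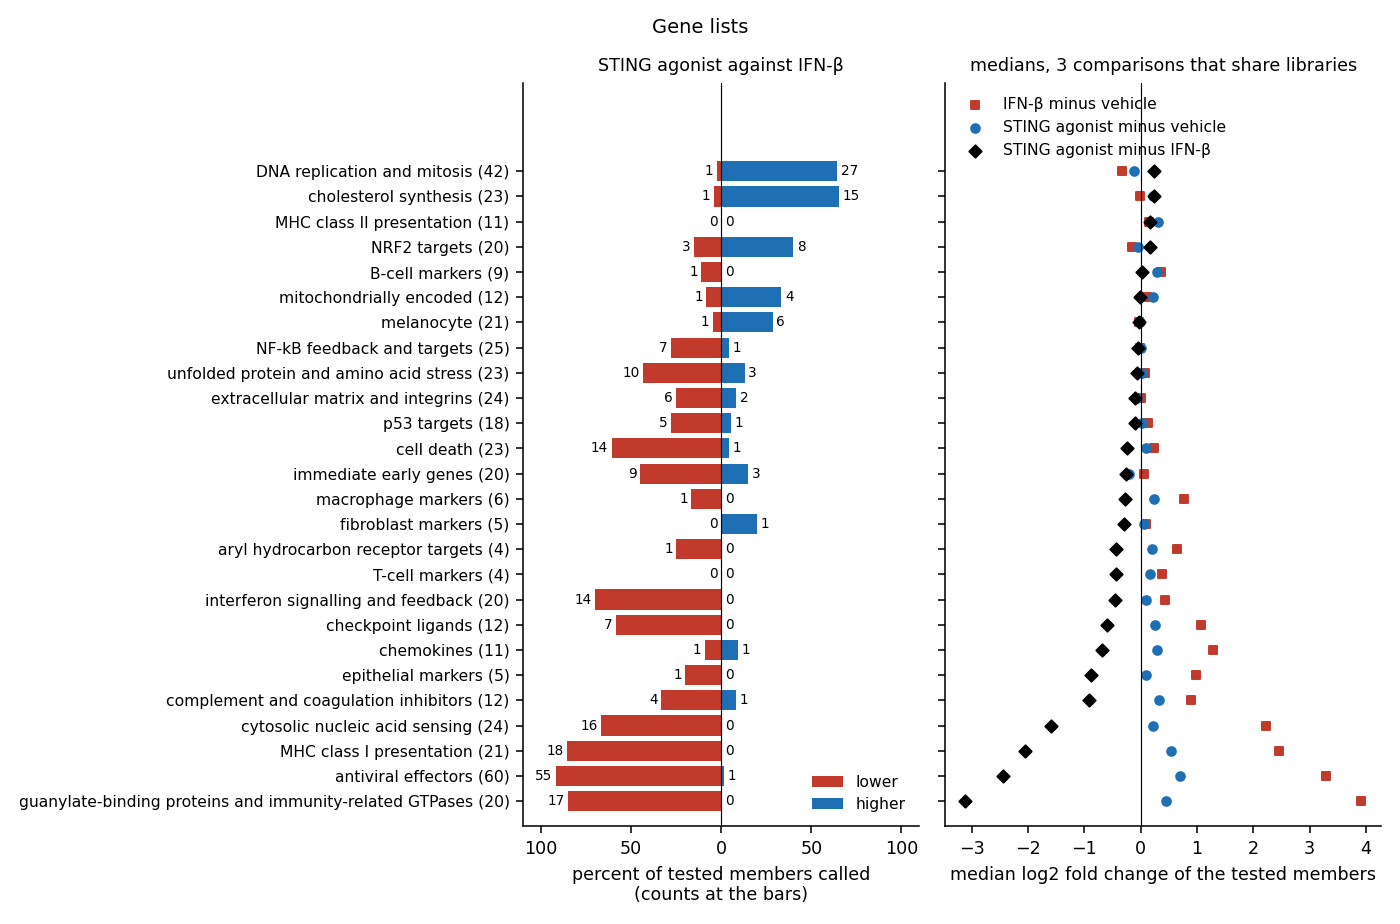
For each gene list with at least 4 tested members (number in brackets), the left panel gives the percent of members called lower (red) or higher (blue) with the STING agonist than with IFNβ, with counts at the bars, and the right panel the median log2 fold change of the members in 3 comparisons. Antiviral, GTPase and MHC class I lists are mostly lower, with 55, 17 and 18 genes called, and the DNA replication and cholesterol lists mostly higher, with 27 and 15.

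Of 42 tested genes of DNA replication and mitosis, 27 were higher and Brca1 was lower, against 8.96% and 11.9% over all genes, and the median log2 fold change was 0.24. None differed over 2-fold. Against vehicle, 36 of the 42 were called lower with IFNβ and 7 with the agonist. Over vehicle the median of the list was -0.34 with IFNβ and -0.12 with the agonist. Ccnb2, a cyclin of mitotic entry, gave 105, 101 and 101 CPM with the agonist, 53, 54.8 and 60 CPM with IFNβ and 117, 119 and 122 CPM with vehicle (log2 0.87 ± 0.06 (SE), n = 3 and 3, adjusted p = 1.22e-33 by edgeR). The agonist libraries lay between the IFNβ and vehicle libraries without overlap.

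Mki67, the proliferation marker, stood at 226, 222 and 199 CPM with the agonist and 119, 147 and 169 CPM with IFNβ, and Cdc20, an activator of the anaphase-promoting complex, at 173, 167 and 165 CPM and 105, 117 and 126 CPM. Neither overlapped between the agents. Of the replicative helicase genes, Mcm3 was higher (0.21), while Mcm2, Mcm4, Mcm5, Mcm6 and Mcm7 had log2 fold changes from 0.00 to 0.14 and did not pass. In bulk RNA, fewer cycling cells and less RNA of these genes per cell cannot be told apart. In the fits that left out 1 library, 24 to 28 of the 42 were higher, and with DESeq2, RLE size factors and upper-quartile scaling 30 to 32.

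Of 23 tested genes of cholesterol synthesis and transport, 15 were higher and Abca1 was lower, with a median of 0.23, and over vehicle the median was 0.22 with the agonist and -0.02 with IFNβ. Against vehicle, 10 were called higher with the agonist and none lower, and 4 were called higher and 4 lower with IFNβ. Fdps, farnesyl diphosphate synthase, gave 188, 176 and 174 CPM with the agonist, 131, 130.1 and 140.1 CPM with IFNβ and 137, 142 and 145 CPM with vehicle (log2 0.42). All agonist libraries of Fdps lay above the other 6, and its log2 fold change over vehicle was 0.34 (adjusted p = 8.56e-07 by edgeR). Insig1, which holds the SREBP activators of this pathway in the endoplasmic reticulum, gave 126, 135 and 140.4 CPM with the agonist, 82.8, 80.3 and 79.4 CPM with IFNβ and 112, 113 and 115 CPM with vehicle, and was higher with the agonist (0.24) and lower with IFNβ (-0.49) than with vehicle. Hmgcs1 (0.39) and Msmo1 (0.32), both enzymes of the pathway, were higher than vehicle with the agonist as well. Abca1, which exports cholesterol from cells, gave 27.3, 29.8 and 26.9 CPM with the agonist and 48, 57.7 and 42.8 CPM with IFNβ, and the agonist libraries overlapped the vehicle libraries at 22.7, 27.8 and 29.1 CPM. All of these differences were below 2-fold. In the fits that left out 1 library, 12 to 15 of the 23 were higher, and with the other 3 scalings 16 to 18.

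**Figure D5:**
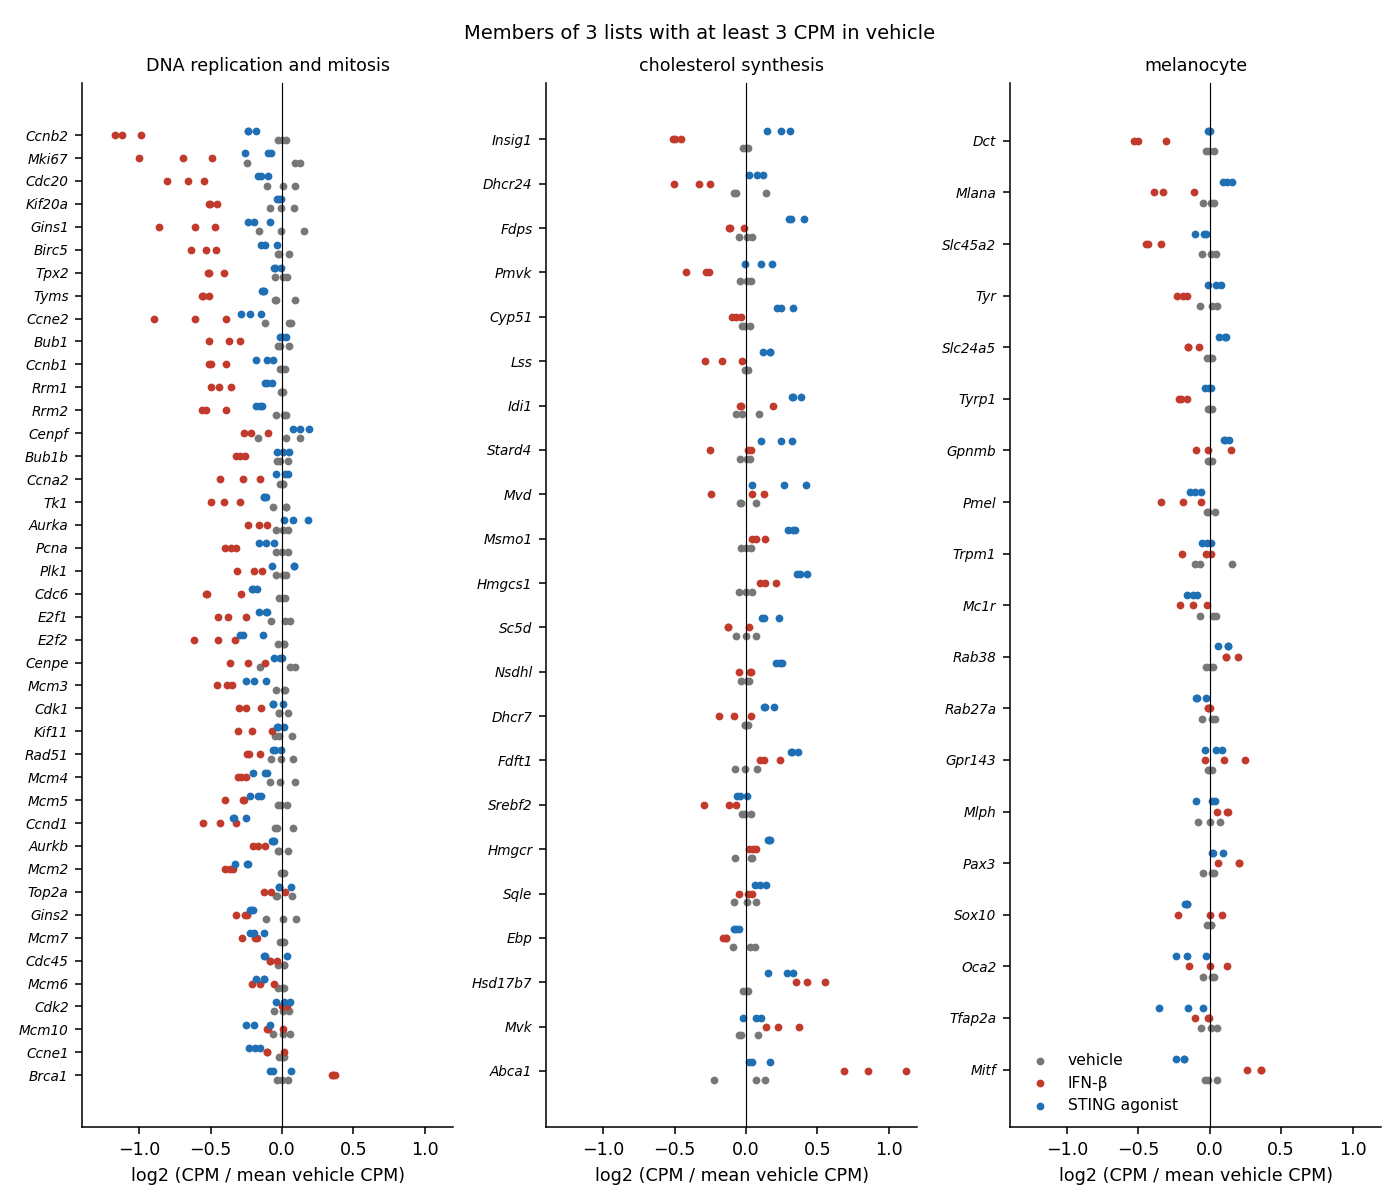
Levels relative to the vehicle mean (log2 of CPM over mean vehicle CPM) of tested members of 3 lists with at least 3 CPM in vehicle; points are the 3 libraries of each group and genes are ordered by their agonist against IFNβ difference. IFNβ values of Ccnb2, Mki67 and Cdc20 lie left of the agonist values, agonist values of Fdps and Hmgcs1 lie right of 0, and Abca1 and Mitf are highest with IFNβ.

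Of 21 melanocyte genes, 6 were higher with the agonist and Mitf was lower, against 8.96% and 11.9% over all genes. The pigment enzyme genes Dct (7943 CPM with the agonist, 5865 CPM with IFNβ, 7972 CPM with vehicle) and Tyrp1 (6783, 5979 and 6836 CPM) and the melanosome gene Mlana (828, 629.5 and 760.1 CPM) were lower with IFNβ than with vehicle. Mitf, the master factor of the melanocyte lineage, ran the other way, with 263, 262 and 252 CPM with the agonist, 380.2, 382 and 356 CPM with IFNβ and 294, 290.2 and 307 CPM with vehicle (log2 -0.52). The largest gaps in CPM above IFNβ also included the glycolytic genes Eno1 (5337 CPM with the agonist, 4325 CPM with IFNβ) and Ldha (2502 and 1792 CPM) and the ferritin light chain gene Ftl1 (3559 and 2513 CPM), which are not list members. The largest below IFNβ were B2m, Ifit3, Rsad2, Lgals3bp and mt-Co1, and Lgals3bp, a secreted galectin-binding glycoprotein, was at 593 and 1730.4 CPM.

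Of 23 genes of the unfolded protein and amino acid stress responses, 10 were lower and 3 higher with the agonist, against 11.9% and 8.96% over all genes. Ddit3, which encodes the stress factor CHOP, gave 56.8, 50.4 and 56.4 CPM with the agonist, 116, 118 and 135 CPM with IFNβ and 31.9, 33.6 and 32.5 CPM with vehicle (log2 -1.18), and was higher with the agonist than with vehicle (0.74). Chac1, a glutathione-degrading enzyme downstream of it, was at 17.7, 31.7 and 13.1 CPM, and Sesn2, a sensor of leucine, at 50.8, 75.7 and 45.3 CPM. The chaperone genes Hsp90b1 (0.40) and Pdia6 (0.27) were higher. Of 20 NRF2 targets, 8 were higher and 3 lower, against 8.96% and 11.9% over all genes. However, 5 were higher without STING replicate 2 and 11 with upper-quartile scaling. Osgin1 (0.49) and the peroxidase gene Prdx1 (0.28) were among the higher and the heme oxygenase gene Hmox1 (-0.35) among the lower. Of 4 aryl hydrocarbon receptor targets tested, Tiparp was lower (-0.29), and Ahrr (-0.60) and Nfe2l2 (-0.13) did not pass, although Ahrr was called without STING replicate 3 (-0.88).

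Over all genes tested, 11.9% were lower and 8.96% higher, which is the background for the counts of the immediate early, p53 and matrix lists. Of 20 immediate early genes, 9 were lower and 3 higher, and 8 were lower and 1 higher without STING replicate 2. Egr1 gave 1.35, 1.75 and 2.66 CPM with the agonist, 7.1, 7.33 and 8.66 CPM with IFNβ and 2.7, 2.85 and 6.06 CPM with vehicle (log2 -1.99), and Fos 3.59, 4.82 and 5.67 CPM with the agonist, 11, 11.2 and 14.2 CPM with IFNβ and 5.45, 6.17 and 8.46 CPM with vehicle (log2 -1.36). Both transcription factor genes were lower with the agonist and higher with IFNβ than with vehicle, with log2 fold changes of -1.02 and 0.98 for Egr1 and -0.51 and 0.85 for Fos. The agonist and vehicle libraries of Fos overlapped. In Egr1 the highest agonist library, at 2.66 CPM, lay just below the lowest vehicle library, at 2.7 CPM. Klf6 was also lower (-0.60). Of 18 p53 targets, 5 were lower and 1, Ccng1, was higher, a call that was lost without STING replicate 2. Among the lower were Cdkn1a, the inhibitor of cyclin-dependent kinases, at 624 CPM with the agonist and 763 CPM with IFNβ and Trp53inp1 at 86.8 and 139 CPM. Of 24 extracellular matrix and integrin genes, 6 were lower and 2 higher, and 5 were lower and 1 higher without STING replicate 3. Thbs1, which encodes thrombospondin-1, gave 14.2, 8.73 and 10.1 CPM with the agonist, 50.1, 43.8 and 34.4 CPM with IFNβ and 11.2, 10.7 and 10.8 CPM with vehicle (log2 -1.98), while the integrin genes Itgb3 (-0.51) and Itga4 (0.43) differed in opposite directions.

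Of 12 tested mitochondrially encoded genes, 4 were higher and 1 lower, against 8.96% and 11.9% over all genes. The libraries of each group spread widely. mt-Co1 gave 2290.2, 2664 and 4124 CPM with the agonist and 5418, 4211 and 3393 CPM with IFNβ, which overlapped, and mt-Cytb 1642, 1839.7 and 2977 CPM and 1817, 1463 and 1078 CPM, which overlapped as well. With DESeq2 and with the robust fit none of the 12 was called, and 1 was higher in the fit over all 24 libraries. Without STING replicate 3, 2 were higher, and without STING replicate 1, STING replicate 2 or IFNβ replicate 1, 6 were.

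The promoter letters were counted over all genes with a RefSeq promoter. In the 250 bases upstream, ISRE-type letters were found for 392 of the 12123 tested genes with an entry (3.23%), for 65 of 262 genes over 2-fold lower with the agonist (24.8%) and for 0 of 36 genes over 2-fold higher. Kappa-B-type letters were found for 269 of the 12123 (2.22%), 16 of the 262 (6.11%) and 0 of the 36. Over all 27025 genes of the table, 3.46% held ISRE-type and 2.01% kappa-B-type letters. No match says only that these letters were not in these windows. Among the shown genes, which were chosen for holding ISRE-type letters, Ifit1, Isg15 and Ddx60 reached 21.2%, 20.5% and 24.4%, and Oas3 and Igtp 0.613% and 2.43% of the IFNβ rise. Of the genes without these letters, Hdc reached 116%, Ifitm3 26.2%, Tap1 3.04% and Ifi44 -0.0843%. No entry was found for Ccl5, Mx1, Zbp1, Ifi27, Rtp4 and Batf2.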

How the data were processed

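Bulk RNA sequencing of B16F10 was analysed as raw counts per gene, which the authors deposited after adaptor trimming with cutadapt, alignment with STAR and counting with Rsubread. The processing notes of these libraries name the genome build mm10 beside Cell Ranger and Seurat, which the paper used for single-cell data. They do not tie it to the STAR alignment. The annotation, strandedness and handling of multi-mapping reads for these counts are not given in the sources used here. GENCODE M21 holds 49056 of the counted genes, 91.4% of them with identical ends and strand, so coordinates are given on GRCm38. Depth ran from 15543131 to 23577050 reads on genes over the 6 libraries compared, which limits genes of a few reads. The single-cell samples were not analysed here.

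The study's minimum of 10 reads summed over libraries, here the 24 bulk ones, was applied, and genes were fitted with edgeR 4.0.16 (R 4.3.3, limma 3.58.1) as group means over the 12 B16F10 libraries after TMM normalization. The quasi-likelihood test was adjusted by Benjamini-Hochberg over all 21138 genes, with a threshold of 0.05; each SE is the fold change over the root of its F value. Left-out genes were fitted and adjusted but not counted. The comparisons against vehicle come from the same fit and share libraries. DESeq2 1.42.0, used by the study, was an alternative here, as were size factors by RLE, a filterByExpr minimum, no minimum, the 6 libraries alone, all 24 libraries, a replicate block, a robust fit, other rules on left-out genes and each library left out. Upper-quartile scaling and the limit by the C2 level were chosen after seeing the data. An exact permutation test of 3 against 3 libraries has a smallest p of 0.1, so none is given.

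The members and lists were chosen with earlier results of these data known. Named genes are, among those called over 2-fold without overlap and with at least 3 CPM, the 12 with the largest change in each direction, the 3 members of each list with the smallest p, the STING pathway genes and the interferon ligands measured, the 6 genes with the smallest difference among those raised over 2-fold by both agents, and the 5 genes with the largest difference in CPM in each direction. Others named were chosen after their values were seen. A few list members are counted but not reported here by name. The fit was checked on simulated data, with a small set of genes changed equally up and down in the agonist libraries. Such data hold no uneven shift of many genes, so the check does not bear on the choice of scaling.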

Additional observations from a re-analysis of the deposited data

How the results depend on the processing

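Under 18 alternatives to the fit the 4 counts kept within 1.5 times of the values above, except that the genes over 2-fold higher rose to 147 with no gene left out. Leaving out each of the 6 libraries in turn gave 1395 to 1850 genes higher, 1737 to 2399 lower, 53 to 71 over 2-fold higher and 321 to 368 over 2-fold lower. The fit with a replicate block gave 1802 higher and 2385 lower, and 59 and 339 over 2-fold, and of the named genes it ended the call of Pdgfra. Deviations of libraries with the same number correlated at -0.148, 0.067 and -0.216, and those with unlike numbers at -0.114 to 0.226. With 3 libraries in a group this check cannot decide whether libraries of the same number were handled together, and the labels do not say. Upper-quartile scaling moved the share of higher calls from 42.9% to 58.3%, and RLE size factors moved it to 50.2%. Of 2068 pairs of a named gene and an alternative, 2015 kept direction and call, 33 lost the call, 11 gained it and 9 turned direction. Those that turned were not called in the fit that turned them. Over the fits that left out 1 library their log2 fold changes ran from -3.11 to 2.07 for Cd247, -0.35 to 0.23 for Cd74, -1.45 to 0.19 for Cldn7, -1.404 to 0.120 for Epcam, -0.048 to 0.752 for H2-DMb2, -0.023 to 0.708 for H2-Eb1 and -0.024 to 0.081 for Irf3. Of 486 medians of gene lists under an alternative, 115 moved by more than the spread between libraries. Calls lost were those of Pdgfra, Ighm, Cldn4, Cd68, Ifnz, Tyrp1 and 3 mitochondrially encoded genes. Why was not tested.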
